A study of Homo sapiens with 32 samples.

Results

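The genes described here are the liver X receptors (LXRs), the LXR target genes and the genes of cholesterol export in THP-1 cells, a human monocytic leukemia cell line. Members were the rows whose gene symbol equalled 1 of 10 names, and all 10 were found among 60107 genes. They are the receptors NR1H3 (LXRα) and NR1H2 (LXRβ), the exporters ABCA1 and ABCG1, the apolipoproteins APOE and APOC1, the target genes MYLIP and LPCAT3, and the lysosomal cholesterol carriers NPC1 and NPC2. Of these, 9 passed the filter on low counts and 1, ABCG1, did not.

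The study asked how ATP citrate lyase (ACLY), which makes cytosolic acetyl-CoA from citrate, and its phosphorylation at serine 455 affect gene expression in resting and lipopolysaccharide (LPS)-stimulated cells. It measured 3′ tags of mRNA in 32 libraries, in 8 groups of 4. Every line carried the ACLY knockout. KO cells had no added ACLY. WT, HA and SA cells were knockout cells transduced by lentivirus with wild-type ACLY, the catalytically inactive H760A mutant or the phosphorylation-deficient S455A mutant. Each line was left unstimulated or received LPS at 100 ng/ml for 3 hours, as the labels give it. The labels name 1 line for each genotype, so genotype and any other difference between lines cannot be told apart, and the sources used here do not state whether KO cells received an empty vector. The p-values measure the spread between the 4 libraries of a group, estimated jointly over the 8 groups. That spread may be technical.

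LXRs are nuclear receptors that bind oxysterols, pair with retinoid X receptors and turn on genes that move cholesterol out of the cell. In macrophages this program loads cholesterol onto apolipoproteins through ABC transporters, limits lipoprotein uptake and remodels membrane phospholipids. NPC2 and NPC1 act one step earlier and hand cholesterol released in the lysosome to the rest of the cell. ACLY supplies the acetyl-CoA from which cholesterol itself is made.

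Reads on genes numbered between 6504099 and 14750815 a library (median 10247620). All 10 monocytic markers examined were detected in every library. Of the 6 T or B cell markers, CD3E was at 0 in all 32 libraries. The 4 erythroid markers summed to at most 1.75 normalized counts in any library. The 6 epithelial markers summed to at most 12.2 in every library but SA + LPS replicate 1, which had 35.9 of CDH1, the E-cadherin gene. One library stood apart from its group, SA + LPS replicate 1, whose root mean square log2 deviation from the group mean over all tested genes was 1.42. The next was KO replicate 3, at 0.828. ACLY itself was counted at 88.5 ± 17.4 (SD, n = 4) in KO and 102 ± 11.4 in WT, a difference of -0.21 on the log2 scale (adjusted p = 0.884). Where the edit lies relative to the counted 3′ tag is not given in the sources used here, so this count does not check the labels.

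The motif that LXR and its partner bind is a direct repeat of a half-site with 4 bases between the copies, called DR4. ABCA1 is the textbook example of a gene with such an element just before its start, so its promoter window from RefSeq (GRCh38.p14) is shown, covering the 250 bases before the start, on the minus strand at chr9:104928156-104928405, with the DR4 match in capitals.
ABCA1: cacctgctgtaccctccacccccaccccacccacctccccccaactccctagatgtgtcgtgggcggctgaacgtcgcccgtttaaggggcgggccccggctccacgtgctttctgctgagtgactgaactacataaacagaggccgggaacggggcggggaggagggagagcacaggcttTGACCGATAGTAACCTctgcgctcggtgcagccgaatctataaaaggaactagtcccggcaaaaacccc
The search used the letters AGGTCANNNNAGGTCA on both strands and allowed 2 mismatches in the 12 fixed letters. In ABCA1 it found TGACCGATAGTAACCT, which lies 69 to 54 bases before the start and reads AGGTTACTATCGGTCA on the other strand, with 2 mismatches. Windows existed for 9 of the 10 members, all but ABCG1, and made up 15 windows in all. The ABCA1 window was the 1 that held a match, whereas 714 of all 35116 windows, or 2.03%, held one. No window of APOC1 or NPC2, the genes whose counts differed between lines below, had these letters in this stretch. The part of the first NPC2 window outside annotated exons is shown because NPC2 is the most highly counted member. It covers chr14:74493609-74493755 on the minus strand, 243 to 97 bases before the start, and has no capitals as it has no match.
NPC2: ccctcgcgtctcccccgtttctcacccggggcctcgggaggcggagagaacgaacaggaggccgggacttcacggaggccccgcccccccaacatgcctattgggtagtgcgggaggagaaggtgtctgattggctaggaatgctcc

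APOC1 was higher than in WT in unstimulated KO and in HA in both states, and NPC2 in KO in both states and in HA after LPS. KO and HA are the lines without a catalytically active ACLY. In the fit over all lines, APOC1 in KO after LPS and NPC2 in unstimulated HA did not pass the test. With replicate numbers as a block in a fit of only the lines compared, both passed (limma adjusted p = 0.006 and 0.00221). Those numbers pair the libraries of KO and WT, and not clearly those of HA. None of the 9 tested members was called in response to LPS in any line. All values below are normalized counts on a scale shared by the 32 libraries, and fold changes are ratios of group means. Differences on the log2 scale come from limma on log2(normalized count + 1), with Benjamini-Hochberg adjustment over 12406 genes, and a gene was called at an adjusted p below 0.01. Counts of 3′ tags do not grow with transcript length, so means may be set side by side. Over the 32 libraries they ran from 969 for NPC2, through 189 for APOC1, 175 for NPC1 and 161 for NR1H2, to 89.7 for LPCAT3, 66.9 for NR1H3, 66.6 for MYLIP, 48.5 for ABCA1, 16.7 for APOE and 1.77 for ABCG1. RNA was taken from whole cultures, so more expressing cells and more RNA per cell cannot be told apart.

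**Figure D1:**
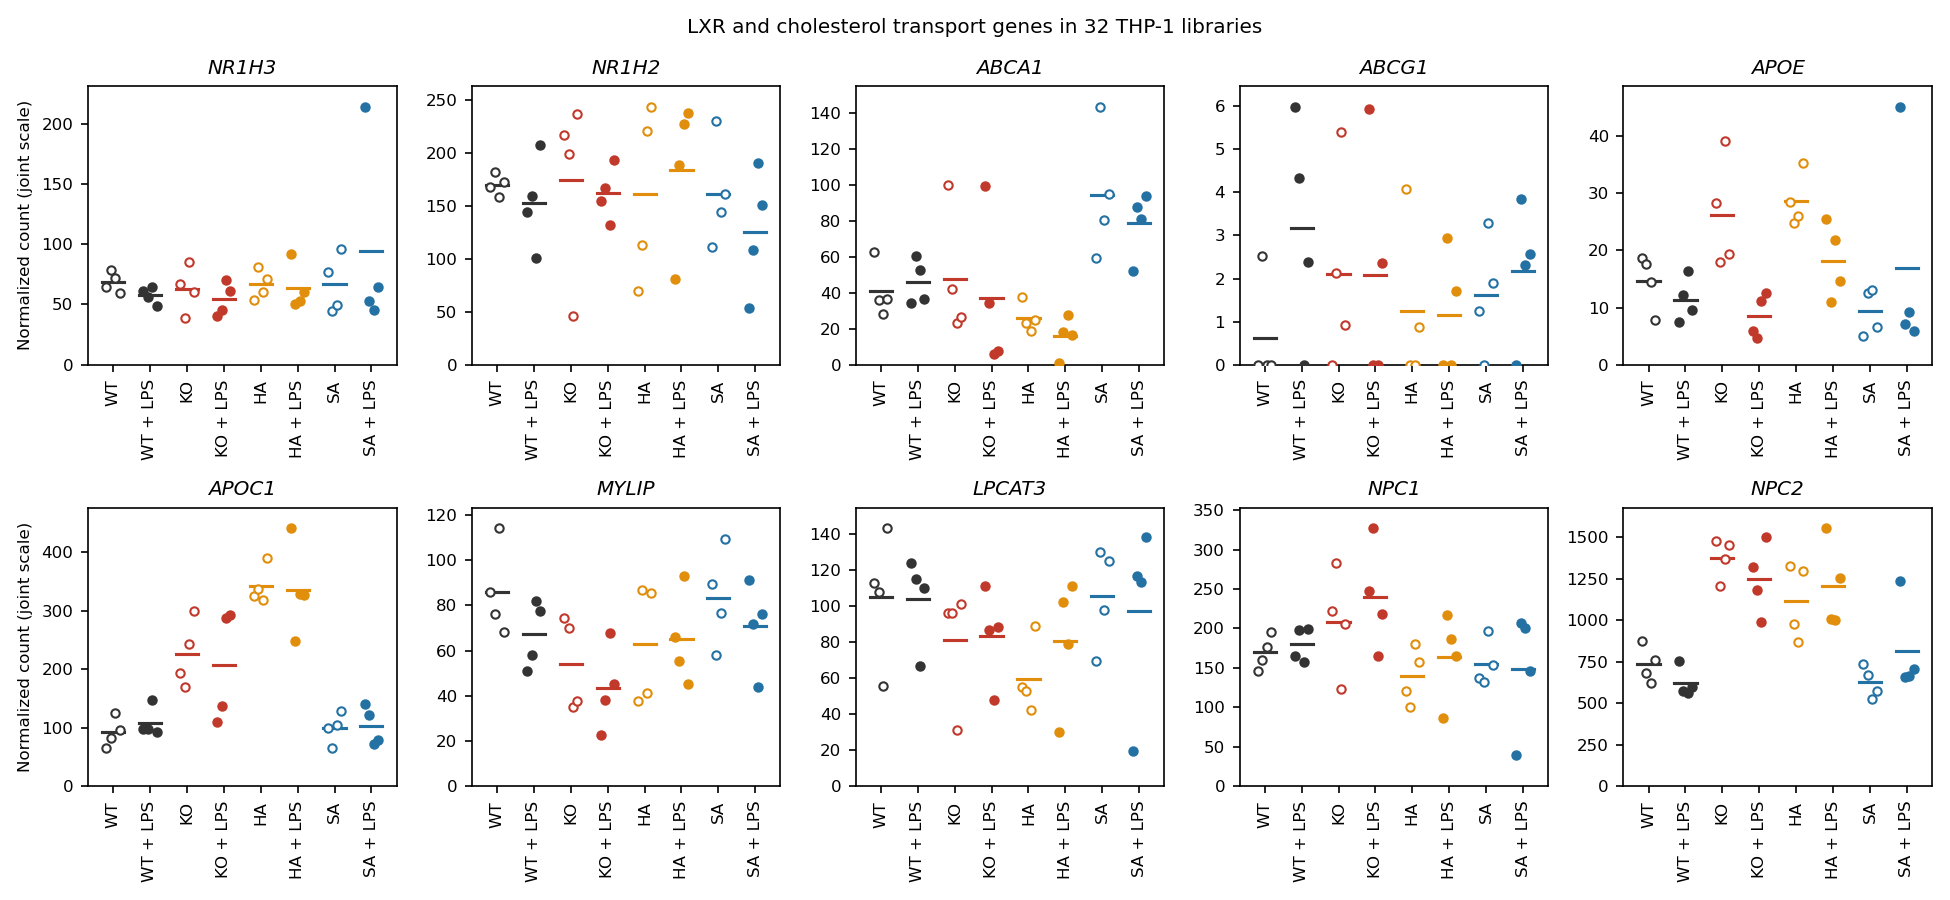
Normalized counts (y axis, linear, from 0, a separate scale for each gene) of the 10 genes in each of the 32 libraries, by group (x axis). Circles are libraries, open for unstimulated and filled for LPS, and bars are means of 4 libraries. The means of APOC1 and NPC2 are higher in KO and HA than in WT and SA, and ABCG1 stays below 6 throughout.

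APOC1, a small apolipoprotein that LXR induces in macrophages together with APOE, had the largest differences from WT of the members that were called. In unstimulated WT its 4 libraries held 65.8, 82.9, 124 and 95.4 normalized counts, and in KO 194, 169, 243 and 299.9. In HA the values were 325, 336, 318 and 389.7. In SA they were 100.1, 65.2, 105 and 129. All KO and all HA libraries thus lay above all WT libraries, while SA overlapped WT. KO exceeded WT 2.46-fold (log2 difference 1.29, SE 0.29, adjusted p = 0.00525) and HA exceeded WT 3.72-fold (1.92, SE 0.29, adjusted p = 8.93e-05), whereas SA differed by 0.11 (95% interval -0.48 to 0.71, adjusted p = 0.998). The KO call was lost (adjusted p = 0.0132 to 0.0332) without WT replicate 1, 2 or 4 or KO replicate 3 or 4, and on the deposited scale (0.0103).

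After LPS the APOC1 libraries of WT held 97.3, 98.0, 147 and 91.9 and those of KO 109, 137, 288 and 292. The HA libraries held 441, 248, 328 and 327. Those of SA held 140.1, 122, 72.0 and 78.7. HA again lay wholly above WT, 3.1-fold higher (1.62, SE 0.29, adjusted p = 0.000716). KO replicates 1 and 2 fell within the range of WT + LPS. The mean of KO + LPS was 1.9 times that of WT + LPS (log2 difference 0.82, 95% interval 0.22 to 1.41), with an adjusted p of 0.104 in the fit over all lines, 0.139 with only the libraries of KO and WT in the fit, and 0.006 with those libraries and the replicate number as a block. The difference between the LPS responses of KO and WT was -0.48 (95% interval -1.32 to 0.37, adjusted p = 1), so the smaller distance after LPS was not distinguishable from the unstimulated one. By mean, the order was HA (342 ± 32.4), HA + LPS (336 ± 79.3), KO (226 ± 57.8), KO + LPS (206 ± 97.1), WT + LPS (108 ± 25.6), SA + LPS (103 ± 33.1), SA (99.9 ± 26.4) and WT (92.1 ± 24.6; SD, n = 4 each). Within HA, within KO and among the 4 WT and SA groups, neighbours in this order differed by less than their SDs. APOC1 shares 479 exonic bases with an uncurated transcript on the same strand and has a nearby pseudogene copy, so a part of its counts is uncertain.

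APOE encodes the apolipoprotein that takes up exported cholesterol and lies on chromosome 19 with 4853 bases between its end and the start of APOC1. Its counts were low, between 34 and 121 reads for a whole group of 4. Unstimulated WT libraries held 18.6, 17.6, 14.6 and 7.88, KO 28.2, 18, 39.2 and 19.3, and HA 28.5, 24.8, 25.9 and 35.3. All HA libraries lay above all WT libraries, and KO replicate 2 lay below WT replicate 1. The HA difference of 0.97 (SE 0.47, unadjusted p = 0.0495, adjusted p = 0.202) and the KO difference of 0.79 (adjusted p = 0.507) were not called. SA libraries held 5.0, 12.5, 13.2 and 6.6. After LPS, WT libraries held 7.48, 12.1, 16.4 and 9.51, and KO libraries 5.93, 4.76, 11.1 and 12.5. All LPS-treated KO libraries were thus below all unstimulated KO libraries. The difference between these KO groups was -1.53 (SE 0.47, unadjusted p = 0.00312, adjusted p = 0.204), which did not pass. HA + LPS held 25.5, 11, 21.8 and 14.6. In SA + LPS replicate 1 had 45.1, while the other libraries had 7.06, 9.29 and 5.99. APOC1 and APOE therefore had the same sign of difference from WT in unstimulated KO and HA, but only APOC1 was called, and the interval of the HA difference in APOE ran from 0 to 1.94.

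NPC2 is a soluble lysosomal protein that binds cholesterol and passes it to the membrane protein NPC1. Its counts were the highest of the members, and their spread within groups was the smallest (SD 0.27 on the log2 scale). NPC2 shares 103 exonic bases with ISCA2 on the opposite strand and 72 with MIR4709 on the same strand. Unstimulated WT libraries held 877, 679.8, 619 and 759.6, and KO libraries 1476, 1208, 1369 and 1452. HA libraries held 1326, 977, 869 and 1296. SA libraries held 738, 673, 525 and 575. KO lay wholly above WT, by 1.87-fold (log2 difference 0.91, SE 0.19, adjusted p = 0.00233). That call was lost (adjusted p = 0.0108 to 0.0138) without WT replicate 2 or 3 or KO replicate 1. The HA libraries overlapped WT at HA replicate 3, and their mean was 1.52 times that of WT (0.59, 95% interval 0.2 to 0.98, adjusted p = 0.0567). SA differed from WT by -0.23 (adjusted p = 0.998).

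After LPS, NPC2 stood at 754, 574, 564 and 599 in WT and at 1322, 1182, 992 and 1500.4 in KO. HA + LPS libraries held 1556, 1008, 1001 and 1254. In SA + LPS, replicate 1 held 1236 and the others 661, 664 and 708. KO and HA both lay wholly above WT, by 2.01-fold (1.00, SE 0.19, adjusted p = 0.00078) and 1.93-fold (0.94, SE 0.19, adjusted p = 0.00265). The HA call was lost (adjusted p = 0.0113 to 0.0221) without WT + LPS replicate 2, 3 or 4 or HA + LPS replicate 1. Group means ran in the order KO (1376 ± 121), KO + LPS (1249 ± 215), HA + LPS (1205 ± 262), HA (1117 ± 228), SA + LPS (817 ± 280.2), WT (734 ± 112), SA (628 ± 95.8) and WT + LPS (623 ± 88.8; SD, n = 4 each). Neighbours among the KO and HA groups differed by less than the larger of their SDs, as did those among the SA and WT groups.

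NPC1 encodes the membrane partner of NPC2. Group means ran from 140.0 ± 35.9 in HA to 239.8 ± 67.4 in KO + LPS, and libraries from 39.4 in SA + LPS replicate 1 to 327 in KO + LPS replicate 2. Differences from WT ranged from -0.52 in SA after LPS to 0.38 in KO after LPS, and none was called (lowest adjusted p = 0.614). In KO the 95% intervals were -0.5 to 0.98 unstimulated and -0.36 to 1.12 after LPS. They include the NPC2 differences of 0.91 and 1.0. Whether NPC1 and NPC2 differ from each other in KO was not tested. NPC1 shares 619 exonic bases with RMC1 on the opposite strand, so reads of the pair cannot be told apart where the counting did not use strand, which the sources used here do not state.

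**Figure D2:**
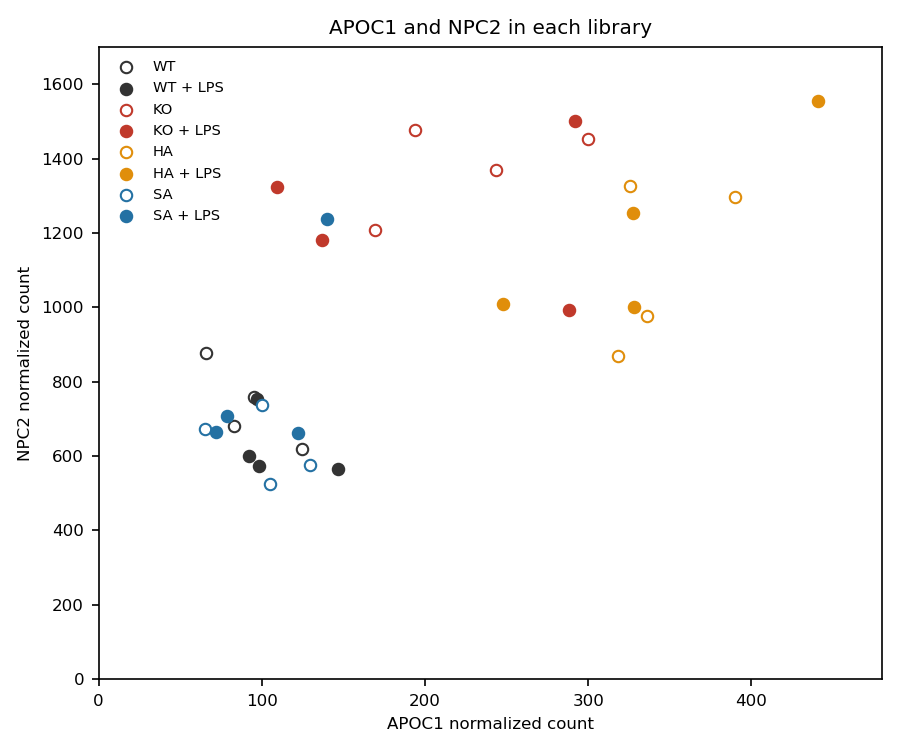
Normalized counts of APOC1 (x axis) and NPC2 (y axis) in each of the 32 libraries, coloured by line, open for unstimulated and filled for LPS. WT and SA libraries sit at 65.2 to 147 on the APOC1 axis and KO and HA libraries at 109 to 441, with SA + LPS replicate 1 the single WT or SA library above 877 for NPC2.

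Set side by side over the lines, 14 of the 16 KO and HA libraries exceeded all 16 WT and SA libraries in APOC1, and 9 of 16 did so in NPC2. The share of all genes that separate the lines in this way is not given, for these or for the genes below. The NPC2 count was set by SA + LPS replicate 1, at 1236, since the next highest WT or SA library held 877. Among the 10 monocytic markers, LYZ, the lysozyme gene, moved with these lines. The summed count of the 10 in unstimulated libraries was 12032 to 14799 for WT and 11050 to 13866 for SA, against 19654 to 35749 for KO and 18066 to 26757 for HA. Without LYZ the other 9 markers summed to 8264 to 9150 in WT, 8696 to 10859 in KO and 7404 to 8583 in HA. LYZ exceeded WT by 1.89 in KO and 1.62 in HA on the log2 scale (adjusted p = 0.000425 and 0.0032). In unstimulated KO 3 of the 10 were called, all higher (LYZ, CD14 at 1.66 with an adjusted p of 6.54e-05, and FCER1G with 0.00903), while 5 overlapped WT. In unstimulated HA only LYZ was called, 6 of the 10 overlapped WT, and CD14 differed by -0.2 (adjusted p = 0.65). CSF1R was not called but lay wholly above WT in both lines, at 2.59 and 2.25 times the WT mean (adjusted p = 0.0173 and 0.0352). CD33 lay wholly below WT in both lines, at 0.73 and 0.79 of the WT mean (adjusted p = 0.133 and 0.198). ITGAM lay wholly below WT in HA only, at 0.48 of the WT mean (adjusted p = 0.0234). After LPS 1 marker, LYZ, was called higher in each line, with 1 called lower in KO (CD33) and 2 in HA (CD14 and ITGAM). Their part in the APOC1 and NPC2 differences was not tested.

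ABCA1 moves cholesterol and phospholipid from the plasma membrane onto lipid-poor apolipoproteins. Its libraries held 63.0, 36.0, 28.0 and 36.8 in WT and 34.4, 60.7, 52.8 and 36.5 in WT + LPS. KO held 100.0, 42.3, 23.0 and 26.7, and KO + LPS 99.6, 34.5, 6.18 and 7.83. KO replicate 1 was the highest of its line in both states, and the replicates of KO + LPS spread over more than a factor of 10. HA held 37.6, 23.1, 18.9 and 24.7, and HA + LPS 1.16, 18.4, 27.7 and 16.3. SA held 59.4, 144, 80.5 and 95.3, and SA + LPS 52.1, 88.0, 81.3 and 94.0. All 4 HA + LPS libraries were below all 4 WT + LPS libraries, and 3 of 4 SA libraries in each state were above all WT libraries of that state.

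Neither pattern passed the test. HA differed from WT by -1.93 after LPS (SE 0.67, 95% interval -3.3 to -0.56, unadjusted p = 0.00726, adjusted p = 0.11). Without HA + LPS replicate 1, which held 1 read, the difference was -1.11 (adjusted p = 0.515). SA differed from WT by 1.18 unstimulated (95% interval -0.18 to 2.55, adjusted p = 0.998) and by 0.77 after LPS (adjusted p = 0.841). KO differed by 0.04 unstimulated and -1.07 after LPS (adjusted p = 0.989 and 0.47). The spread within groups, an SD of 0.99 on the log2 scale, was the largest of the tested members, so these intervals allow more than a 2-fold difference either way in unstimulated KO. In 11 of the 16 KO and HA libraries ABCA1 was below every WT and SA library, the lowest of which held 28.0.

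ABCG1 passes cholesterol to mature high-density lipoprotein, and it could not be described at this depth. All 32 libraries together held 60 of its reads, 13 libraries held none, and no library had more than 6. The reads per group of 4 were 3 in WT, 12 in WT + LPS, 7 in KO, 8 in KO + LPS, 5 in HA, 6 in HA + LPS, 8 in SA and 11 in SA + LPS. Counts of this size lie at or near the 3 reads that a count of 0 in a library allows, and no fold change is given.

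NR1H3 and NR1H2 encode the LXRs themselves, the former being the form enriched in macrophages and the latter the form found in most tissues. NR1H3 group means lay between 54.3 ± 14.0 in KO + LPS and 94.1 ± 80.5 in SA + LPS, and the SA + LPS mean rested on replicate 1, with 214 against 52.6, 45.3 and 64.1. Its differences from WT ran from -0.17 in unstimulated KO to 0.39 in SA after LPS, and without SA + LPS replicate 1 the latter was -0.1. NR1H2 means lay between 126 ± 58.8 in SA + LPS and 184 ± 71.3 in HA + LPS. KO replicate 3, with 46.0 against 199 to 236 in the rest of KO, and HA replicate 1, with 69.1 against 113 to 243, were low. No difference of NR1H2 from WT exceeded 0.38 in size, and the 95% intervals reached from -1.29 to 1.11. Neither receptor was called in any comparison, with adjusted p of at least 0.748 against WT. NR1H3 shares 189 exonic bases with ACP2 and NR1H2 1182 with NAPSA, each on the opposite strand.

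MYLIP encodes IDOL, the ubiquitin ligase that sends the LDL receptor to degradation, and LPCAT3 an acyltransferase that places polyunsaturated chains in membrane phospholipids. MYLIP libraries held 85.9, 76.2, 114 and 68.3 in WT and 74.4, 69.9, 35.1 and 37.7 in KO. After LPS WT held 50.9, 58.1, 82.1 and 77.7, and KO 22.5, 38.1, 68.0 and 45.4. The groups overlapped in both states. KO differed from WT by -0.71 (SE 0.34, unadjusted p = 0.0464, adjusted p = 0.335) and by -0.69 after LPS (unadjusted p = 0.052, adjusted p = 0.295), and HA by -0.53 and -0.07 (adjusted p = 0.33 and 0.939). LPCAT3 means were 105 ± 36.3 in WT, 81.2 ± 33.5 in KO, 59.8 ± 20.3 in HA and 106 ± 28.1 in SA. HA differed from WT by -0.78 (95% interval -1.78 to 0.22, adjusted p = 0.315), which did not pass. LPCAT3 shares 3096 exonic bases with EMG1 on the opposite strand, the largest overlap of the members, so its counts are uncertain.

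**Figure D3:**
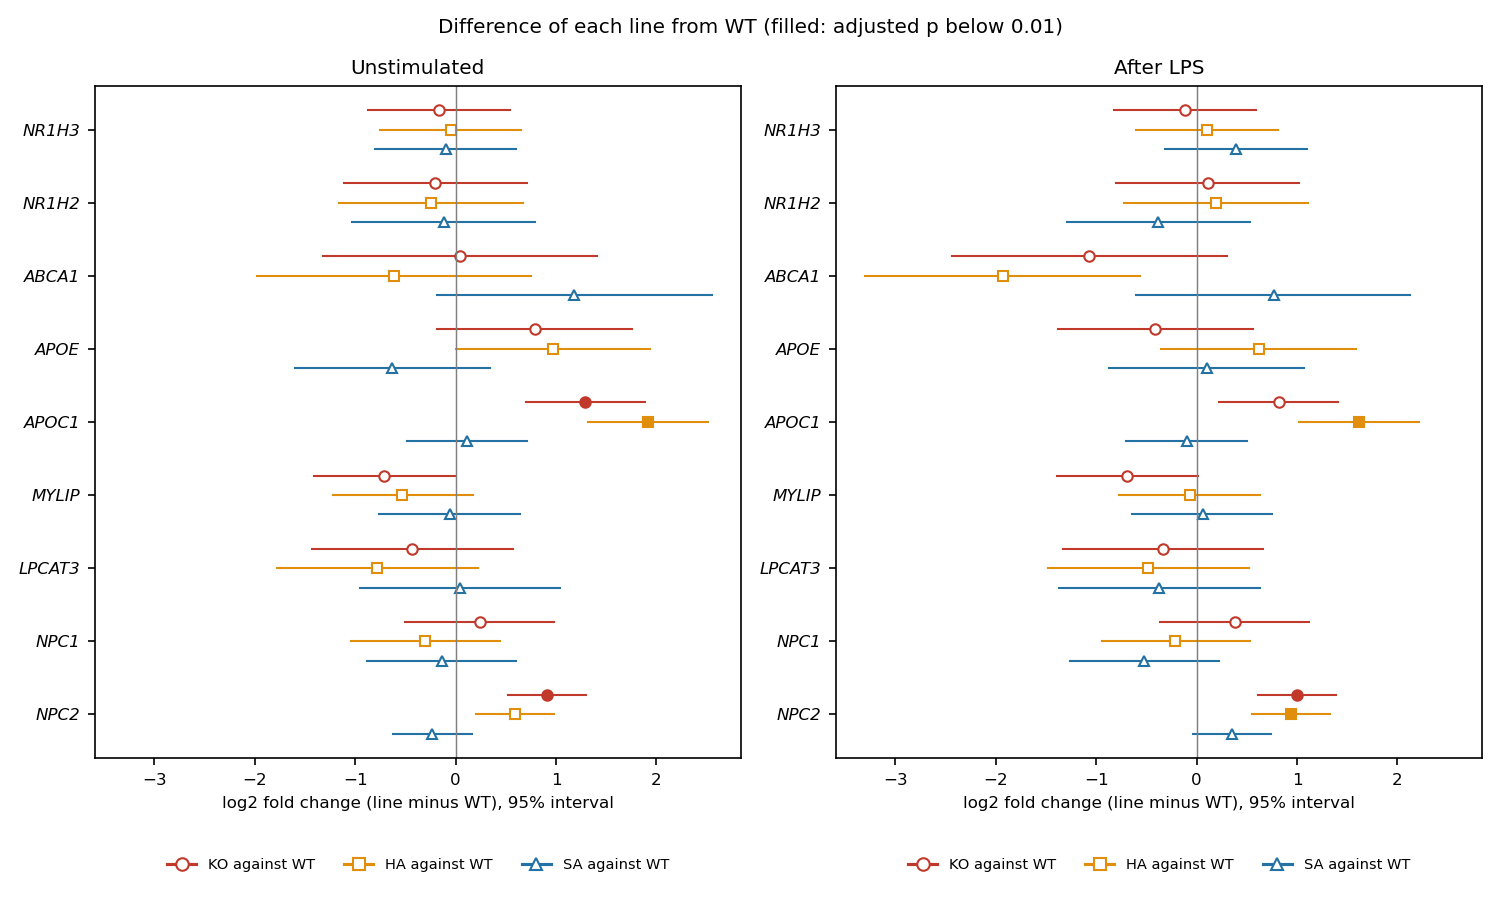
Difference of KO, HA and SA from WT on the log2 scale (x axis) for the 9 tested genes, unstimulated (left) and after LPS (right). Points are estimates from 4 libraries a group, bars 95% intervals, and filled points have an adjusted p below 0.01. Filled are APOC1 in HA and NPC2 in KO in both states, APOC1 in unstimulated KO and NPC2 in HA after LPS, and no point of SA.

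Of the 9 tested members, 2 were called in unstimulated KO and 1 in unstimulated HA, beside 2.9% and 2.52% of all 12406 genes. After LPS 1 was called in KO and 2 in HA, beside 3.47% and 2.02% of all genes. Each of these members was higher than in WT. None was called in SA, in which limma called 0% of genes in either state. At an unadjusted p under 0.05, limma counted 445 genes (3.59%) in unstimulated SA and 646 (5.21%) after LPS, and 0 of the members in both. Non-overlapping libraries were found for 2 of 9 members in unstimulated KO, 2 in unstimulated HA, 1 in KO after LPS and 3 in HA after LPS, against 12%, 17.6%, 13.9% and 13.5% of all genes. The median difference of the members was 0.04 in KO, -0.24 in HA and -0.1 in SA unstimulated, and -0.12, 0.1 and 0.06 after LPS, against -0.03 to -0.01 over all genes. With only the lines compared in the fit and the replicate number as a block, APOC1 was called as well in KO after LPS, which made 2 of 9. Without the block that fit called 1. With SA + LPS replicate 1 and KO replicate 3 both left out, 1 of 9 was called in unstimulated KO, where APOC1 then had an adjusted p of 0.0102, and the other counts were as before. The 3 comparisons of each state share the WT libraries.

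In response to LPS no member was called in any of the 4 lines, where 0.25% of genes in WT, 0.58% in KO, 0.403% in HA and 0.492% in SA were called. At an unadjusted p under 0.05 limma counted 0 of 9 in WT, HA and SA, beside 1.61%, 4.76% and 9.85% of all genes, and 1 of 9 in KO, the low-count APOE, beside 5.42%. APOE in KO was also the single member whose libraries did not overlap, beside 3.45% of all genes. For NPC2 the intervals were the narrowest of the members, and for APOC1 they were wider. The NPC2 response lay between -0.62 and 0.16 in WT and between -0.54 and 0.24 in KO, and the APOC1 response between -0.35 and 0.84 in WT and between -0.83 and 0.37 in KO. For ABCA1 they were wide, from -1.18 to 1.56 in WT and from -2.49 to 0.24 in HA. None of the 27 differences between a line's LPS response and that of WT was called (smallest adjusted p = 0.997), beside 0.00806% of all genes in KO and 0% in HA and SA. By limma 1 had an unadjusted p under 0.05, NPC2 in SA (0.57, unadjusted p = 0.0424), beside 3.68% of all genes. SA + LPS replicate 1, the highest of its group for NPC2, enters this value. The member counts for LPS were 0 in each line under every alternative run.

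**Figure D4:**
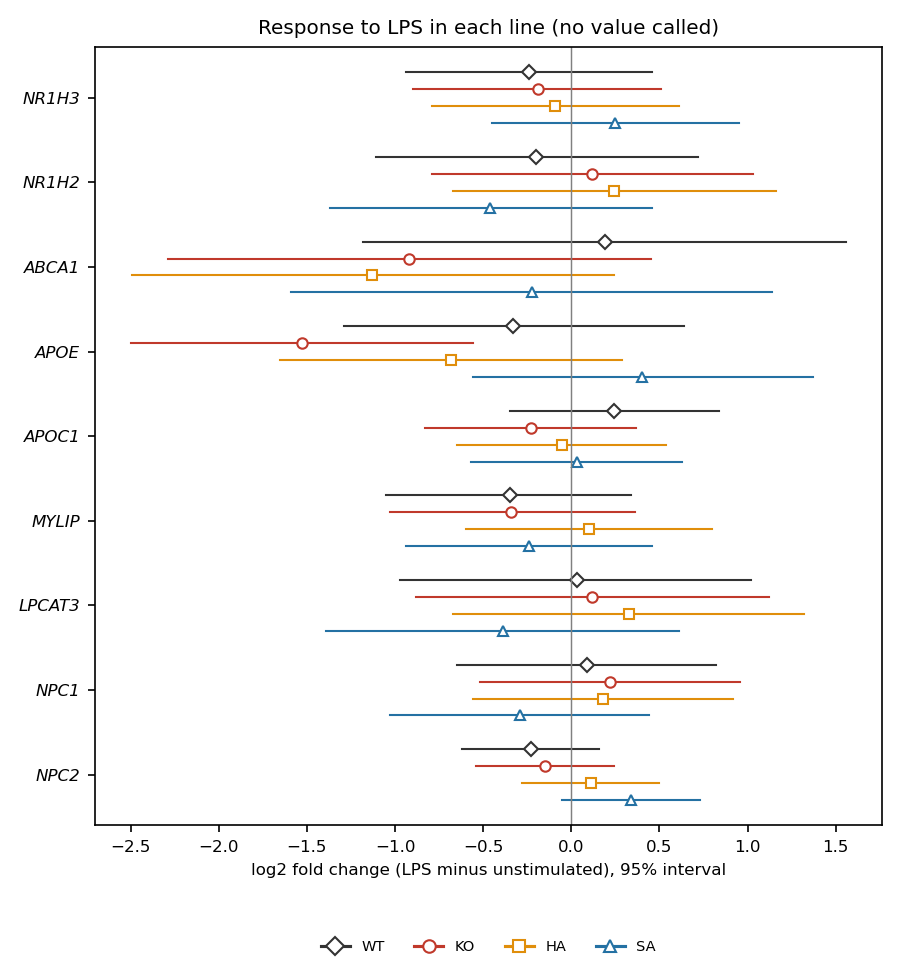
Response to 3 hours of LPS on the log2 scale (x axis) of the 9 tested genes in each of the 4 lines. Points are estimates from 4 libraries a group and bars 95% intervals. The KO response of APOE, at -1.53, is the point farthest from 0, and no point is called.

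Lists of other LXR targets and of cholesterol-handling genes were counted in the same comparisons. Of 24 other LXR targets 14 were tested. In each of the 4 comparisons of KO or HA with WT, LPL was lower, and the list medians were 0.03 to 0.14 against -0.03 to -0.01 over all genes. LPL, lipoprotein lipase, which LXR induces in macrophages, fell from 235 ± 41.8 in WT to 85.5 ± 23.4 in KO (-1.47, SE 0.2, adjusted p = 1.06e-05) and 68.0 ± 10.8 in HA (-1.77, SE 0.2). After LPS its mean was 243 ± 14.2 in WT, 76.7 ± 18.5 in KO (-1.68, SE 0.2) and 65.7 ± 13.2 in HA (-1.89, SE 0.2). All 16 KO and HA libraries were below all 16 WT and SA libraries in LPL. LPL was named because it was called in these comparisons, so this separation is not further evidence.

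Among 23 partners of lysosomal release, storage and efflux, 22 were tested, and 2 were higher in KO and 1 in HA in each state. CAV1, the caveolar coat protein, rose from 26.9 ± 4.51 in WT to 84.2 ± 16.6 in KO (1.6, SE 0.29) and 85.9 ± 7.78 in HA (1.65, SE 0.29), and after LPS from 18.8 ± 2.63 to 94.8 ± 8.02 and 96.3 ± 24.2. LAMP2, a lysosomal membrane protein that binds cholesterol, rose in KO from 2007 ± 88.8 to 2898 ± 45.4 (0.53, SE 0.09), and after LPS from 1974 ± 131 to 3049 ± 388.7 (0.62, SE 0.09). In HA it also lay wholly above WT, by 0.24 unstimulated and 0.38 after LPS, but was not called (limma adjusted p = 0.124 and 0.0176). Of 10 lysophospholipid acyltransferases, the wider family of LPCAT3, 8 were tested. LPCAT1 fell from 615 ± 118 in WT to 171.0 ± 50.1 in KO (-1.86, SE 0.22) and 246 ± 46.9 in HA (-1.32, SE 0.22). MBOAT2 fell in unstimulated KO, from 500.3 ± 32.4 to 315 ± 22.0 (-0.67, SE 0.15), a call lost (adjusted p = 0.0123 to 0.0248) without WT replicate 2, 3 or 4 or KO replicate 1, 2 or 3.

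Of 20 nuclear receptor partners and coregulators 19 were tested. TBL1X, a subunit of the corepressor complex that holds unliganded nuclear receptors inactive, was lower in all 4 comparisons, from 248 ± 59.2 in WT to 101 ± 11.1 in KO (-1.27, SE 0.26) and 103 ± 18.4 in HA (-1.24, SE 0.26). The unstimulated calls were lost (adjusted p = 0.0111 to 0.0147) without WT replicate 3 in KO, and without WT replicate 3 or 4 or HA replicate 1 or 4 in HA. NCOA2, a coactivator, was higher in KO after LPS, 261 ± 70.0 against 138 ± 21.2 (0.9, SE 0.22), and the call was lost (adjusted p = 0.0101 to 0.0623) without any 1 of the 8 libraries other than KO + LPS replicate 3. None of the 5 tested of 12 lipoprotein uptake receptors and none of the 6 tested of 10 oxysterol enzymes was called in any comparison. No gene of any list was called in SA or in response to LPS. In HA, 12 of 14 other LXR targets and 21 of 22 lysosomal partners were not called in each state. Nor were 18 of 19 coregulators and 7 of 8 acyltransferases, while 2.52% and 2.02% of all genes were called. The lists held 14, 22, 5, 19, 6 and 8 tested genes. Over all lists 7 genes were called in unstimulated KO and 7 in KO after LPS, beside 2.9% and 3.47% of all genes. With only KO and WT in the fit the counts were 6 and 8, and 11 and 17 once the replicate numbers were blocked in that smaller fit. Calls over all 12406 genes also rose with the block, from 382 to 1151 unstimulated and from 446 to 1509 after LPS.

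**Figure D5:**
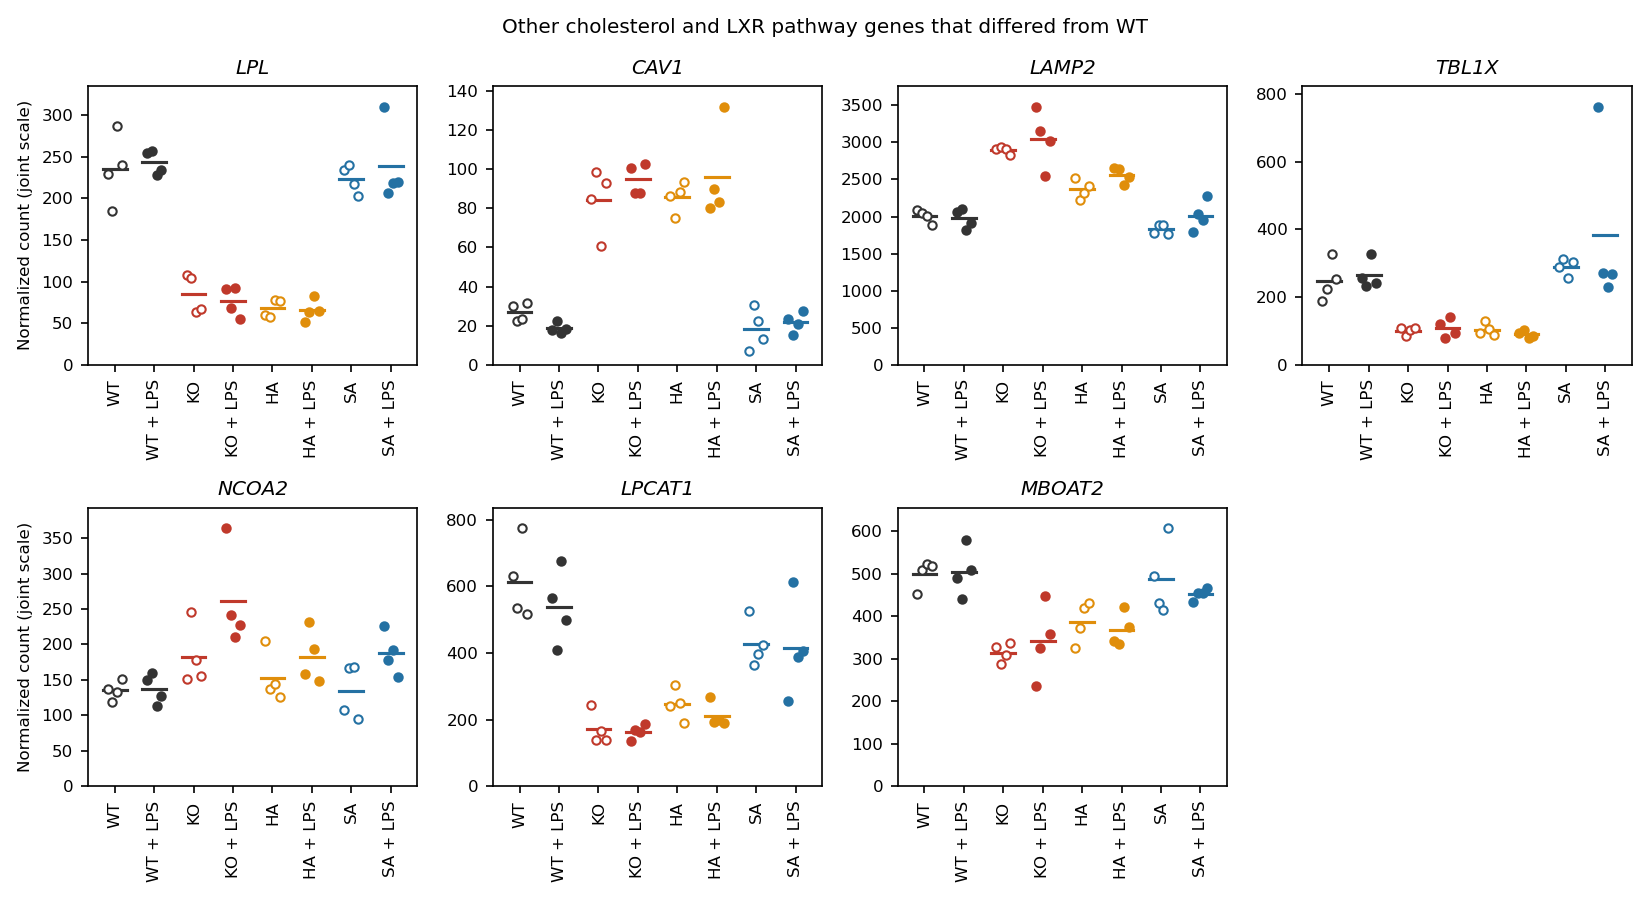
Normalized counts (y axis, linear, from 0, a separate scale for each gene) of 7 listed pathway genes that were called, in each of the 32 libraries, by group (x axis). Circles are libraries, open for unstimulated and filled for LPS, and bars are means of 4. For CAV1 all KO and HA libraries lie above, and for LPL and TBL1X below, all WT and SA libraries.

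The pattern of each member over the 8 group means was also set against that of all other tested genes, as a description. For NPC2 the closest were HLA-DMB, SOX4 and AXL (Pearson r 0.997, 0.994 and 0.986) and for APOC1 AKAP17A, C8orf82 and CD82 (0.991, 0.989 and 0.987). For ABCA1 they were PLXDC2, AC010894.3 and SLC4A7 (0.982, 0.978 and 0.966), for APOE KBTBD11, HDHD3 and SLC27A3 (0.985, 0.984 and 0.962), and for NPC1 MANBA, ATP6V1A and ERI1 (0.988, 0.987 and 0.979). Between members r was 0.84 for APOC1 and NPC2 and -0.79 for APOC1 and ABCA1. The 8 points share their libraries and scale, and with this many genes high values of r arise for every member.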

How the data were processed

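QuantSeq 3′ mRNA sequencing was done on 32 libraries of THP-1 cells. Per the paper's methods, reads were trimmed (Bbduk), aligned to GRCh38 (STAR) and assigned to genes (HTSeq-count). Versions and the strand setting are not given in the sources used here. The values deposited by the authors are normalized counts written with decimal commas, in 1 table for each line and treatment, made with DESeq2 size factors according to the authors, and not pooled over replicates. Of 60199 rows a table, 92 were spike-ins with 1 read in all and were left out. Unused columns of samples numbered 0.

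Each nonzero value (100%) was a whole multiple of 1 number per library within 0.05 reads, so whole reads were recovered. The deposited size factors had been set within each line, which moves the deposited values relative to WT by -0.10 (KO), 0.15 (HA) and 0.26 (SA) log2 units. To put the lines on 1 scale, new median-of-ratios factors were estimated across the 32 libraries together and the reads divided by them. The 12406 genes whose mean deposited normalized count reached 10 were tested using limma 3.58.1 (R 4.3.3, trend) on log2(value + 1) in 1 fit with a mean for each group, and called at a Benjamini-Hochberg adjusted p below 0.01. A fold change on this scale understates the change of low genes. No count model was fitted, and limma voom on the recovered reads was run as an alternative.

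Groups and replicate numbers were read from the sample titles. Same-numbered libraries deviated together in WT and KO. Between the states r was 0.263 to 0.68 in WT and 0.124 to 0.675 in KO. Between KO and WT it was 0.334 to 0.682 unstimulated and 0.179 to 0.723 after LPS. The own number gave the highest r for 3 or 4 of the 4 numbers, so these libraries were taken as paired. Between the states of HA and of SA r ran from -0.219 to 0.581 and from -0.143 to 0.489. There the own number was highest for 2 of 4, and the pairing was not clear. Genes are described by a rule: the 10 members, ACLY, up to 4 called genes with the smallest p in each pathway list and comparison, and for members the 3 genes of most similar pattern. LYZ, CD14, FCER1G, CSF1R, CD33, ITGAM, CD3E and CDH1 were named after their values were seen. Some genes that the rule names are not reported here. The members and lists were chosen with earlier results of these data known. Alternatives changed the pseudocount, filter, scale, libraries and weights, and the replicate block was added to a fit of only the lines compared. Positions and overlaps are from GENCODE release 44.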

Additional observations from a re-analysis of the deposited data

Results flagged for a closer look

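In 72 groups of 4 libraries (9 members in 8 groups), 5 had a library far from the other libraries by Dixon's test at the 95% level, which chance does in about 1 group in 20. In SA + LPS, replicate 1 was high for NR1H3 (214.2 normalized counts, others 45.3 to 64.1), APOE (45.2, others 5.99 to 9.29) and NPC2 (1236.4, others 660.7 to 708.0). This library also stood farthest from its group over all genes. APOC1 was high in WT + LPS replicate 3 (146.6, others 91.9 to 98.0). LPCAT3 was low in KO replicate 3 (31.1, others 96.2 to 101.2), where NR1H2 and NPC1 were also the lowest of their group.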

How the results depend on the processing

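Of 2322 alternative values for the members, 2156 kept their direction and their side of the limit, 147 values not called under either setting changed sign, 15 lost a call, 4 gained one and 0 called values reversed. For the pathway genes called, 398 of 432 values held and 34 lost a call. The count of members called in unstimulated KO, 2, was 1 on the deposited scale, 1 with only the lines compared in the fit (2 with the replicate block added), 1 with SA + LPS replicate 1 and KO replicate 3 left out, and 0 to 2 when 1 library was left out, with 0 without WT replicate 2. In unstimulated HA it was 1, and 2 with the replicate block (NPC2, adjusted p = 0.00221) or with library weights (LPCAT3, -1.05, adjusted p = 0.00289). In KO after LPS it was 1, and 2 with the replicate block or with library weights (APOC1). In HA after LPS it was 2, and 1 to 2 when 1 library was left out. The cause was not tested. Library weights, voom and the pair of libraries left out were chosen after seeing the data. The replicate block changed no other call of a member. For HA and SA it was not clear that the numbers pair the libraries (r as low as -0.331 and -0.556 against WT). The replicate block was fitted with only the lines compared, so 2 choices changed. Over all genes the full fit, the fit of the lines compared and that fit with the block called 360, 382 and 1151 in unstimulated KO, 430, 446 and 1509 in KO after LPS, 313, 471 and 595 in unstimulated HA and 250, 284 and 333 in HA after LPS. For LPS they called 31, 14 and 126 in WT, 72, 21 and 116 in KO, 50, 33 and 70 in HA and 61, 7 and 3 in SA. Library weights gave 1075, 1112, 2633 and 1163 against WT in the same order, and the deposited scale 503 in unstimulated HA. Count tests with edgeR and DESeq2 were planned and not run. Depth limits ABCG1, APOE and ABCA1.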
